A study of Homo sapiens with 2 samples.

Results

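The enzymes that cut, hydroxylate and crosslink collagen were followed in lung fibroblasts after knockdown of periostin. They were 10 named genes, BMP1, LOX, LOXL1, LOXL2, LOXL3, LOXL4, PLOD1, PLOD2, P4HA1 and P4HA2, chosen by their function and read from every array probe whose RefSeq accession names them. All 10 were found among the 21743 genes named on the array and among the 16052 genes measured, meaning that the probe standing for the gene was flagged well above background on at least 1 array. They were read by 12 probes and 30 spots, and all 12 probes were well above background on both arrays. The cells were MRC-5, a widely used, established fibroblast line that came from human fetal lung. Their RNA was measured after transfection with control siRNA on 1 single-colour Agilent array, and on 1 further array after 48 h with periostin siRNA at 10 nM, to look for genes whose expression depends on periostin. Neither group had a replicate array, so the groups could not be tested against each other, no p-value is given, and each ratio compares these 2 RNA samples. The number of arrays limits the precision of every value, and differences between cultures are in none of the errors.

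Fibrillar collagen is made as a procollagen that is modified before and after it leaves the cell. In the endoplasmic reticulum, prolyl 4-hydroxylases hydroxylate prolines, which stabilises the triple helix, and lysyl hydroxylases hydroxylate lysines, which sets the kind of crosslink that can form. Outside the cell, BMP1 removes the C-terminal propeptide of procollagen and also cuts the precursor of lysyl oxidase, and the lysyl oxidases, which are copper enzymes, oxidise lysines so that neighbouring molecules become covalently joined. Periostin, a matricellular protein, is known to bind BMP1 and to bring it to lysyl oxidase on collagen, and the crosslinked matrix is a known feature of fibrotic lung.

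Signals are given in the arbitrary units of the scanner after both arrays were scaled to a common 75th percentile, and the log2 ratio is always that of periostin siRNA over control siRNA. Signals of different probes cannot be set against each other, so only ratios are compared between genes. The spots were well above background in 58.0% of 58717 cases on the control siRNA array and in 58.9% with periostin siRNA, and 0 spots were saturated. POSTN, the target of the siRNA, gave 2638 with control siRNA and 280 after knockdown, a log2 ratio of -3.24 ± 0.20 (propagated error of 1 spot), so the target moved as the labels say. In RNA from a whole culture, fewer cells of a type and less RNA per cell cannot be told apart, here and in every later ratio. The propagated error is the one that the scanner program attaches to a spot, and it was close to 0.20 for each of the 12 enzyme probes. Probes that were printed 10 times gave a second measure of spot error. The SD of the log2 ratio between the 10 spots was 0.24 among the dimmest of 5 brightness classes, 0.10, 0.07 and 0.06 in the next classes, and 0.05 in the brightest.

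The enzymes differed in direction. LOX and LOXL3, both lysyl oxidases, gave lower signals after knockdown, at log2 ratios of -0.92 and -1.02. LOXL1, another lysyl oxidase, gave a higher signal at 0.61, and LOXL4 stood at 0.56. BMP1, the procollagen C-proteinase, was lower at -0.41, while P4HA2 and PLOD1 were higher at 0.47 and 0.41. PLOD2, LOXL2 and P4HA1 lay between -0.24 and 0.15. In all, 5 of the 10 enzymes had a log2 ratio below 0, where 45.5% of the 16052 genes measured did.

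**Figure D1:**
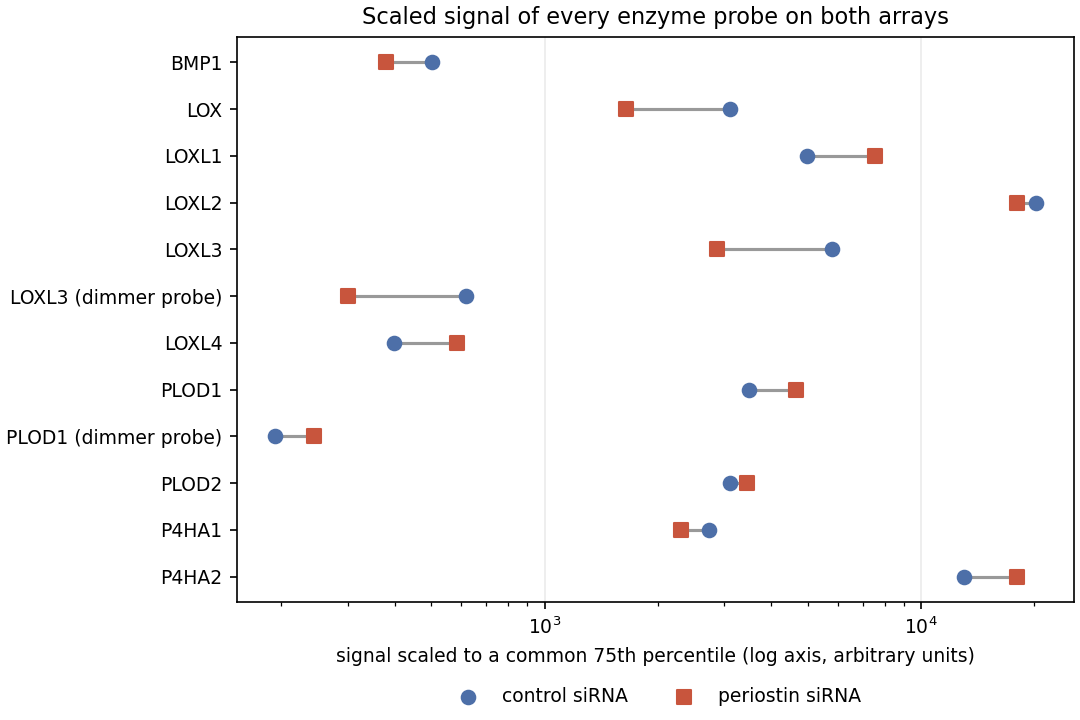
Scaled signal of each of the 12 enzyme probes (horizontal log axis, arbitrary units) on the control siRNA array (circles) and the periostin siRNA array (squares), with a line joining the 2 signals of a probe. The pairs of LOX and LOXL3 run to lower signals after knockdown, from 3101 to 1641 and from 5800 to 2869, while those of LOXL1 and P4HA2 run to higher ones.

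LOX, the founding lysyl oxidase, oxidises lysines of collagen and elastin, and was measured by 1 probe (NM_002317) printed in 10 spots. With control siRNA the lowest of its 10 spots read 2944, the median 3090 and the highest 3300. With periostin siRNA they read 1527, 1652 and 1705. All 10 spots were lower on the periostin siRNA array and the readings of the 2 arrays did not overlap. How many other probes printed 10 times also showed no overlap was not counted. The mean signals were 3101 and 1641, a log2 ratio of -0.92 ± 0.04 (SD, n = 10 spots), or 1.89-fold lower. The ratio of single spots ran from -0.98 to -0.86, and 1 spot that carried an outlier flag on both arrays lay within that range. The spots lie on the same 2 arrays, so their SD covers the printing and reading of the slide and not the cultures.

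LOXL3, a lysyl oxidase with scavenger receptor domains, was measured by 2 probes assigned to the same transcript (NM_032603). Its brighter probe read 5800 with control siRNA and 2869 with periostin siRNA. Its dimmer probe read 619 and 300. The log2 ratios were -1.02 ± 0.20 and -1.05 ± 0.20 (propagated error of 1 spot each), so the 2 probes differed by less than that error. LOXL3 was the single enzyme more than 2-fold lower, at 2.02-fold, and its distance from the 2-fold line was smaller than the error of its spot. With the normexp background correction or without scaling, LOXL3 stood at -0.96 and -0.97, and no enzyme was more than 2-fold lower.

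LOXL2, which is secreted by fibroblasts and acts on the collagen of basement membranes, was like LOX measured by 10 spots of 1 probe (NM_002318). With control siRNA the lowest spot read 19392, the median 20333 and the highest 20520. With periostin siRNA they read 16669, 18134 and 18591. The readings of the 2 arrays did not overlap here either, but they lay close together, and the spots do not cover the choice of scaling. The log2 ratio was -0.16 ± 0.04 (SD, n = 10 spots), and -0.29 with scaling on the median, a shift larger than that SD. In the main analysis single spots lay between -0.23 and -0.09, all 10 below 0. The spots of LOX and of LOXL2 were therefore separated by a wide gap, and the ratio of LOX lay below that of LOXL2 by -0.75 on the log2 scale.

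**Figure D2:**
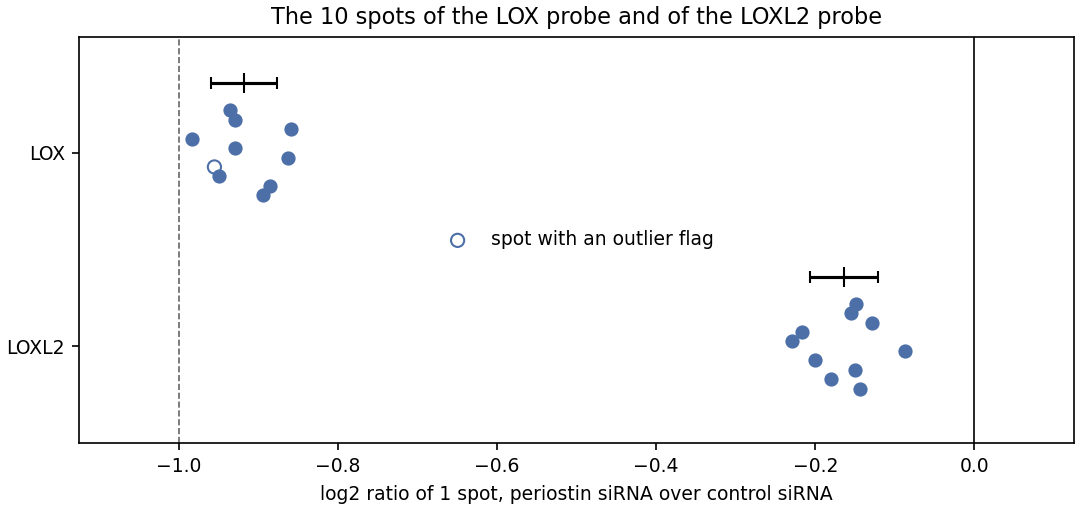
Log2 ratio of periostin siRNA over control siRNA (horizontal axis) for each of the 10 spots of the LOX probe and of the LOXL2 probe, with the mean and SD over the spots drawn above each set and the spot with an outlier flag drawn open. The LOX spots lie between -0.98 and -0.86 and the LOXL2 spots between -0.23 and -0.09, and the dashed line marks 2-fold lower.

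LOXL1 and LOXL4 went the other way. LOXL1 (NM_005576), which is best known for its part in elastic fibres, read 4962 with control siRNA and 7566 after knockdown, a log2 ratio of 0.61 ± 0.20. LOXL4 (NM_032211) read 398 and 587, a log2 ratio of 0.56 ± 0.20. Both errors are the propagated error of 1 spot, and both ratios exceeded it. Their ratios differed from each other by -0.05, well under the combined error of 0.29. The ratio of LOX lay -1.53 from that of LOXL1, and the ratio of LOXL3 lay -1.62 from that of LOXL1 and -1.58 from that of LOXL4, each larger than the same combined error. LOX and LOXL3 differed by 0.10, which was smaller than it. The 5 lysyl oxidases thus had a median of -0.16, with 3 of them below 0 and 2 above.

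BMP1 (NM_001199) cuts the C-propeptide of procollagen and activates the lysyl oxidase precursor. Its 1 spot read 504 with control siRNA and 378 after knockdown, a log2 ratio of -0.41 ± 0.20. The difference was larger than the spot error, and 19.8% of all genes measured had a lower ratio. PCOLCE (NM_002593), the secreted enhancer that binds procollagen and speeds its cutting by BMP1, read 8158 and 4918, a log2 ratio of -0.73. The ratios of BMP1 and PCOLCE differed by 0.32, close to their combined error of 0.29.

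The 4 hydroxylases had a median log2 ratio of 0.28, with 1 below 0 and 3 above. PLOD1 (NM_000302), the lysyl hydroxylase of the triple helix, read 3493 with control siRNA and 4651 with periostin siRNA on its brighter probe, and 192 and 244 on its dimmer probe. The log2 ratios of its 2 probes were 0.41 and 0.34, so both pointed the same way. PLOD2 (NM_182943), the lysyl hydroxylase of the telopeptides whose product leads to the more stable crosslinks, read 3117 and 3450, and its log2 ratio of 0.15 was smaller than the spot error of 0.20.

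P4HA1 and P4HA2 are alternative catalytic subunits of prolyl 4-hydroxylase. P4HA1 (NM_001142595) read 2734 with control siRNA and 2309 after knockdown, a log2 ratio of -0.24 ± 0.20. P4HA2 (NM_004199) read 13004 and 17987, a log2 ratio of 0.47 ± 0.20. The pair stood on opposite sides of 0 and differed by -0.71, with a combined error of 0.29.

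**Figure D3:**
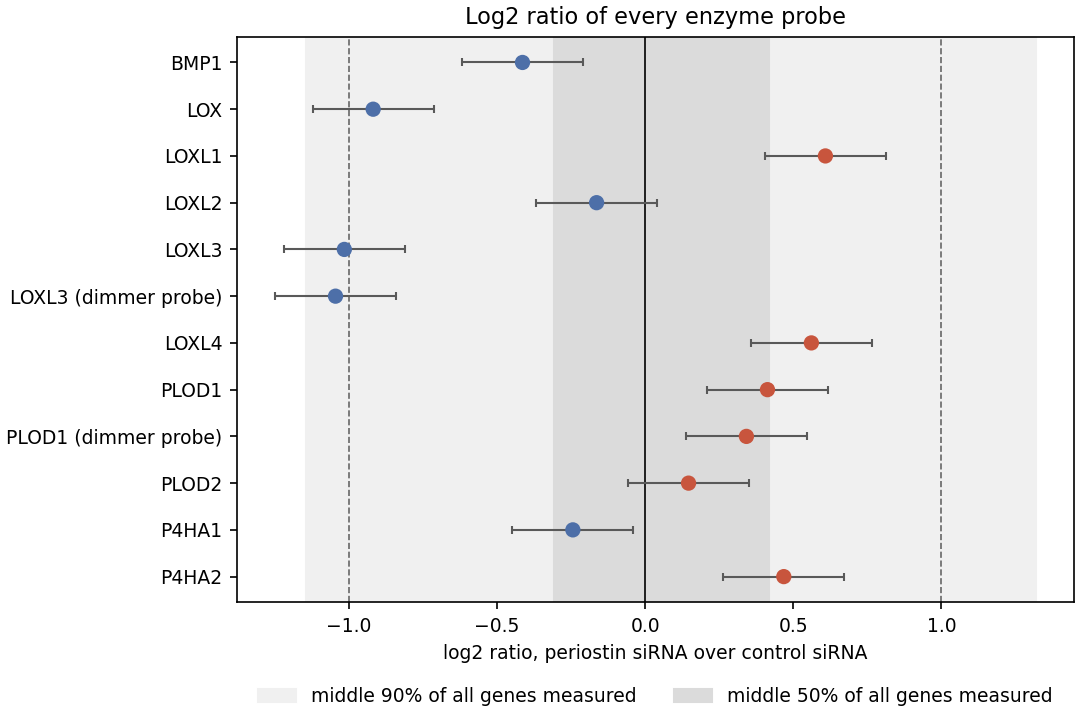
Log2 ratio of periostin siRNA over control siRNA (horizontal axis) for each of the 12 enzyme probes, with the propagated error of 1 spot as bars, the middle 50% and 90% of all 16052 genes measured as shaded bands and 2-fold in either direction as dashed lines. LOX and both LOXL3 probes lie near the 2-fold line on the lower side, LOXL1 has the highest ratio at 0.61, and no enzyme lies outside the middle 90%, which ran from -1.15 to 1.32.

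The ratios of the enzymes were then set beside those of all genes of the array. Their median log2 ratio was -0.01 and that of all genes measured was 0.06, with the middle 50% of all genes between -0.31 and 0.42. The median size of the ratio, regardless of sign, was 0.44 for the enzymes and 0.36 for all genes. More than 1.5-fold lower were 2 of the 10 enzymes, LOX and LOXL3, against 13.7% of all genes, and 1 was more than 1.5-fold higher, LOXL1, against 17.6%. More than 2-fold lower was 1 enzyme, LOXL3, against 6.42% of all genes, and 0 were more than 2-fold higher, against 7.97%. At 3-fold there were 0 enzymes in either direction, where 2.75% of all genes were lower and 3.37% higher. With 10 genes these counts are near the background shares, and a share near the background is not a result about the enzymes. By rank, 6.29% of all genes had a lower ratio than LOXL3 and 7.32% a lower ratio than LOX, while 16.7% had a higher ratio than LOXL1, 18.4% than LOXL4 and 22.4% than P4HA2.

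The sequences before the starts of these genes were read for the enzymes with the lowest ratios and the highest one. RefSeq (GRCh38.p14) gave promoter windows for 8 of the 10 enzymes, and the 250 bases before the start are printed here in the direction of the gene for LOX and LOXL3, which were lower, and LOXL1, which was higher. Several of these enzymes are known hypoxia-response genes, so capitals mark the core of the hypoxia response element, ACGTG or its GCGTG form, on either strand, where CACGT and CACGC are the same letters read on the opposite strand. For LOX and LOXL3 the window is that of the outermost start.
LOX, chr5:122078260-122078509, minus strand: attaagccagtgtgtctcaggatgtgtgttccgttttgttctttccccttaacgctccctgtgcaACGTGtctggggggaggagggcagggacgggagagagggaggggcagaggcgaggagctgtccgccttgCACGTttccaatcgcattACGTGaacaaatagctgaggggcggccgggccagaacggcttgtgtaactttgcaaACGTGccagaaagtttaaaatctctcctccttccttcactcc
LOXL3, chr2:74553943-74554192, minus strand: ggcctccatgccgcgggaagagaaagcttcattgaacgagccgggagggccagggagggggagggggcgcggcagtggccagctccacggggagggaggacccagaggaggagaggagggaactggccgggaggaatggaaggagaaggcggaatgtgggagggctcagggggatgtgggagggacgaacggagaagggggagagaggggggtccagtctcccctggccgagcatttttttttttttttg
LOXL1, chr15:73926212-73926461, plus strand: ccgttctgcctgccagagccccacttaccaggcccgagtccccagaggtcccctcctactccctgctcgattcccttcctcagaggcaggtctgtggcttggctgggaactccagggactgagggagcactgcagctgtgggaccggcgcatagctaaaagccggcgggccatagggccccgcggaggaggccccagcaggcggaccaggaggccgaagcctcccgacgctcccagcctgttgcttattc

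The LOX window held 4 matches to ACGTG and none to GCGTG. Of all 35116 promoter windows of this length, 18.5% held ACGTG at least once and 0.669% held it 4 times or more. The cut-off of 4 was taken from this LOX window, so that share is not a test of LOX. The LOXL3 and LOXL1 windows shown held neither form, and 43.2% of all windows held at least 1 of them. A further LOXL3 window, at chr2:74549527-74549776, held 1 match to GCGTG, and each of the further LOX windows, which overlap, held 1 match to ACGTG and 1 to GCGTG. Of the 11 windows of the 8 enzymes, 7 held at least 1 of them. The windows are not separate, since LOX gave several and its overlapping windows hold the same matches, so that count is not a result about the enzymes. The window of PLOD2 held 2 matches to ACGTG and 1 to GCGTG, that of P4HA1 held 1 to ACGTG, that of PLOD1 held 2 to GCGTG, and those of LOXL4 and P4HA2 held none. CAGAC, the core of the SMAD element, was found in 38.0% of all windows, among them windows of LOX, LOXL1, PLOD2, P4HA1 and P4HA2. The AP-1 element TGANTCA was found in 6.57% of all windows and in none of the 11. A match says only that the letters are there, and is neither a bound site nor a cause.

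Other genes were read from 7 lists of 60 genes in all, 6 lists on collagen maturation and 1 of further hypoxia-response genes, and 52 of the 60 were measured. Their median log2 ratio was -0.17, where that of all genes measured was 0.06. Of the 52, 37 were below 0, against 45.5% of all genes, 6 were more than 2-fold lower, against 6.42%, and 3 were more than 2-fold higher, against 7.97%, with 2 of these 3 in the hypoxia list. Some of the 52, on either side of 0, changed sign under another processing, so the count below 0 can shift with the processing. The few that passed 2-fold were spread over 6 of the lists, and the median of no list was past 2-fold.

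Among the other procollagen proteinases and their enhancers 4 of 9 were measured, with a median of -0.21, 1 more than 2-fold lower and 1 more than 2-fold higher. The tolloid relatives of BMP1, TLL1 and TLL2, were below background on both arrays, as were PCOLCE2, MEP1A and MEP1B. ADAMTS14, a procollagen N-proteinase, was higher, from 87.2 to 374, a log2 ratio of 2.10. ADAMTS3, another N-proteinase, read 26.8 with control siRNA and 9.73 with periostin siRNA, where it was not well above background. A bound was set by the dimmest signal on that array flagged well above background or by the probe's own signal, whichever was larger. For ADAMTS3 the larger was its own signal, so its value of 2.76-fold lower is a ratio to an unflagged signal and not a firm minimum. With the normexp background correction, which lifts low signals, its ratio was -0.25.

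Among the other hydroxylases and glycosyltransferases all 11 were measured, with a median of -0.25, 1 more than 2-fold lower and 0 more than 2-fold higher. P4HA3, the remaining alternative catalytic subunit of prolyl 4-hydroxylase, read 273 with control siRNA and 53.9 after knockdown, a log2 ratio of -2.34 (-1.40 with normexp). It lay -2.10 from P4HA1, with a combined error of 0.29, so the 3 catalytic subunits had 3 different ratios, P4HA3 far below 0, P4HA1 slightly below and P4HA2 above. P4HB, the shared beta subunit, stood at -0.03 and turned to just above 0 without scaling, with quantile normalization and with the mean over its probes. PLOD3, the lysyl hydroxylase that also glycosylates, stood at 0.16, and the highest ratio of the list was 0.61 for P3H2, a prolyl 3-hydroxylase.

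Among the procollagen chaperones and export genes 6 of 7 were measured, with a median of -0.21 and 0 past 2-fold in either direction. The lowest ratio was that of SERPINH1, the collagen chaperone HSP47, which read 31954 and 18966, a log2 ratio of -0.75, and the highest was 0.18 for MIA3, which is needed to export procollagen. CTAGE5 was not matched under that symbol.

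All 7 substrates of the enzymes were measured, with a median of -0.27 and 2 more than 2-fold lower. COL5A2, a chain of the type V collagen that starts fibrils, read 22181 and 8626, a log2 ratio of -1.36. COL5A3 read 43.4 and 15.2, a log2 ratio of -1.51 that was -0.51 with normexp. The highest ratio of the list was COL3A1 at 0.13, which was just below 0 when the arrays were scaled on their medians. COL1A1 and COL1A2, the chains of type I collagen, stood at -0.54 and -0.21 and are named after their values were seen.

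Among the extracellular partners of lysyl oxidases or BMP1 all 10 were measured, with a median of -0.02. FMOD, or fibromodulin, a small proteoglycan that binds collagen and lysyl oxidase, was the 1 gene more than 2-fold lower, from 365 to 170 as means of 10 spots, a log2 ratio of -1.10 (-0.88 with normexp). THBS1 and FBLN5 had the highest ratios, both 0.64, and THBS1 stood at 0.42 with the mean over its probes. FN1, fibronectin, a scaffold for periostin, BMP1 and lysyl oxidase, stood at -0.05. It was read by 1 spot, at 745 and 718, of a probe assigned to NM_054034. Whether that probe reads the other transcripts of FN1 was not tested.

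Among the genes that supply the cofactors 5 of 6 were measured, with a median of -0.46. SLC31A1, the copper importer, was the 1 gene more than 2-fold lower. It read 840 and 398 on its brighter probe, a log2 ratio of -1.08 (-0.88 with normexp), and -1.28 on its other probe. ATOX1, a copper chaperone, had the highest ratio, 0.28.

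Among 10 further hypoxia-response genes, read because several of the enzymes are known targets of hypoxia-inducible factor, 9 were measured with a median of -0.42. Of these, 6 were below 0 and 3 above, where 45.5% of all genes measured were below 0. A gene among the 6 stood at -0.02 and turned above 0 with normexp and without scaling. VEGFA had the lowest ratio, -0.85, while NDRG1 read 6891 and 13969, a log2 ratio of 1.02, and fell under 2-fold with normexp and with scaling on the median. CA9 was not well above background with control siRNA and read 15.8 with periostin siRNA, at least 2.10-fold higher, which was lost with normexp, with scaling on the median and with quantile normalization. Like the enzymes, the list held ratios on both sides of 0.

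**Figure D4:**
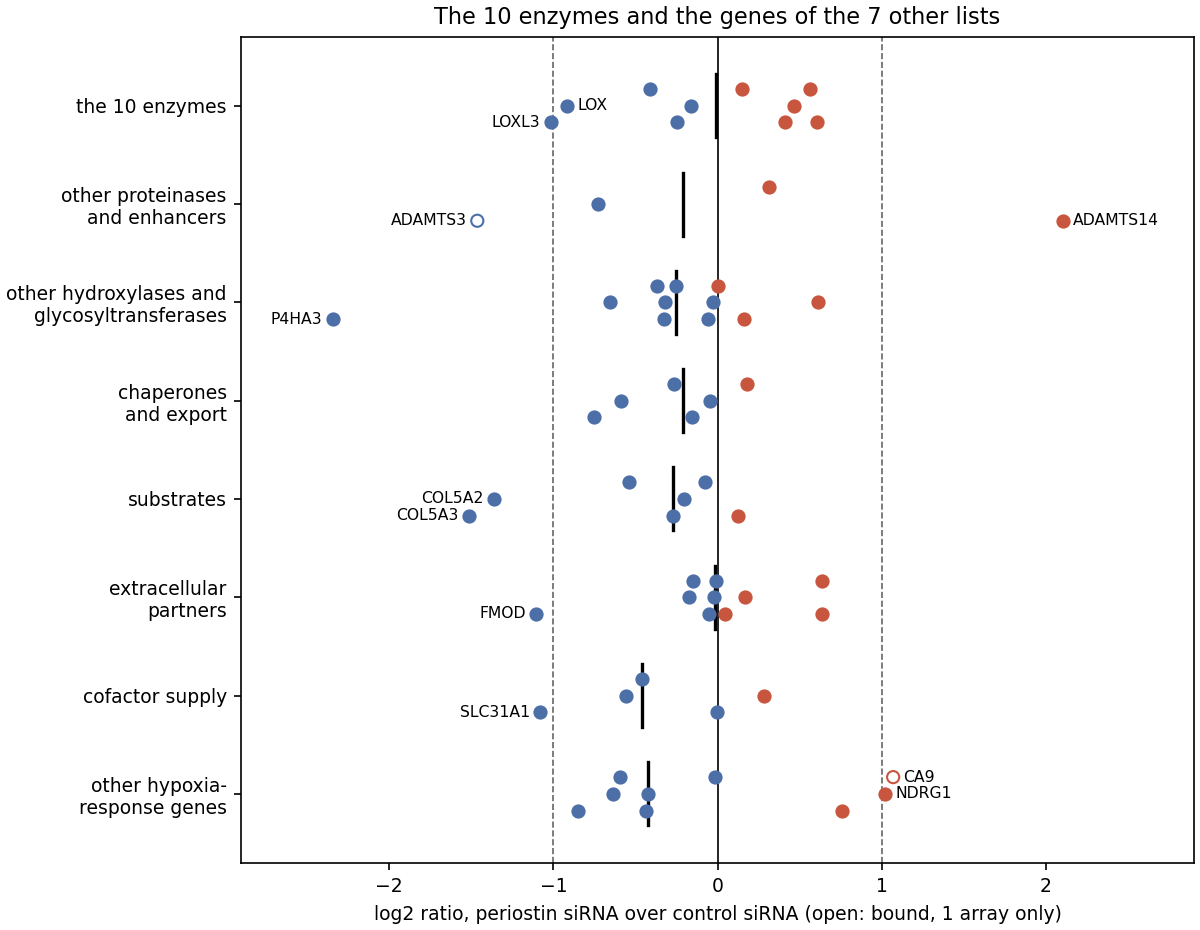
Log2 ratio of periostin siRNA over control siRNA (horizontal axis) for the 10 enzymes and for the measured genes of the 7 other lists, with 1 point per gene, a vertical bar at the median of each list, open points for genes well above background on 1 array only and dashed lines at 2-fold. The medians of the 7 other lists lie between -0.46 and -0.02, and P4HA3 at -2.34 and ADAMTS14 at 2.10 lie farthest out.

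The labelled cell type was checked against markers. All 10 fibroblast markers were measured, with a median log2 ratio of -0.10 and a summed signal of 368843 with control siRNA and 325951 with periostin siRNA, and among them PDGFRA was lowest at -0.90 and LUM highest at 0.83. Of 6 epithelial markers 3 were measured, the signal summed over all 6 was 178 and 309, and CDH1, KRT5 and SFTPB were below background on both arrays. EPCAM, an epithelial adhesion molecule, read 34.6 and 135, a log2 ratio of 1.97 (1.08 with normexp). SFTPC read 33.8 and 53.3, a log2 ratio of 0.66 (0.21 with normexp), and SCGB1A1 read 104 and 110, a log2 ratio of 0.08. Of 4 endothelial markers 3 were measured, the signal summed over all 4 was 133 and 130, and PECAM1 was below background on both arrays. VWF read 72.1 and 79.8 on its brighter probe, a log2 ratio of 0.15, and its other probe, printed 10 times, gave 0.79. CDH5 read 49.5 and 46.5, a log2 ratio of -0.09, and KDR was well above background with control siRNA only. Of 6 immune markers 3 were measured, and the signal summed over all 6 was 34.9 and 56.1, while neither array detected HLA-DRA, LAPTM5 or MS4A1 above background. PTPRC read 17.6 and 25.1 on its brightest probe, a log2 ratio of 0.51, while its other probes were below background on both arrays. CD74 and CD3E were well above background with periostin siRNA only. The part of these differences in the ratios of the enzymes was not tested.

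**Figure D5:**
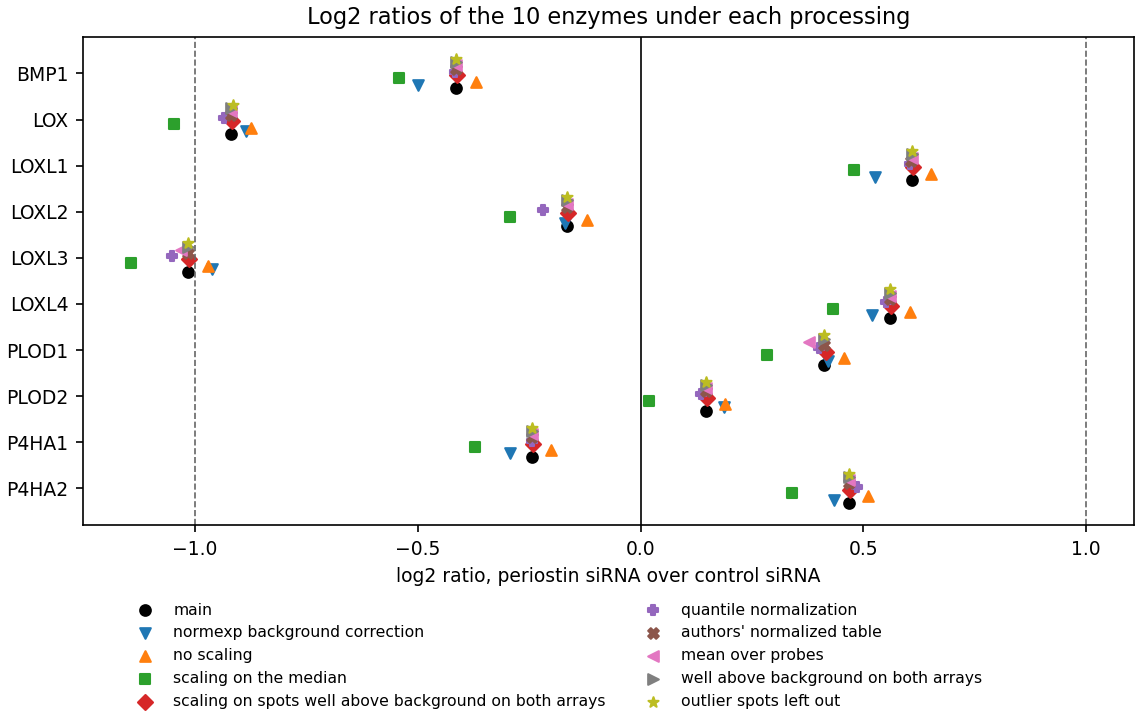
Log2 ratio of periostin siRNA over control siRNA (horizontal axis) of the 10 enzymes under the main processing and 9 alternatives, each with its own symbol, and dashed lines at 2-fold. No enzyme changed sign under any of the 9, several of which move all enzymes by the same amount or not at all. LOX and LOXL3 are the ones that cross the 2-fold line, between -1.05 and -0.87 and between -1.14 and -0.96.

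Over 9 other ways to correct, scale and filter the signals, 0 of 90 values changed sign. The 90 values are not 90 separate checks. No scaling, scaling on the median and scaling on spots well above background moved every enzyme by the same amount. The filter on dim spots left every enzyme as it was. The count past 2-fold did depend on the processing, since LOX and LOXL3 lie at that line. Scaling on the median placed both of them past it, and the normexp correction and the unscaled signals placed neither.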

How the data were processed

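Total RNA of MRC-5 cells was measured on SurePrint G3 Human GE 8x60K v2 arrays, 1 array per group, with groups taken from the labels. The authors deposited the scanner output, whose intensity values Feature Extraction (11.5.1.1 per the file headers, 12.0.3.1 in the submitters' processing notes) had background-subtracted. They also deposited a table of normalized intensity, which for the 49697 probes printed once equalled the scanner intensity times 1 factor per array (3.65 and 3.54).

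From each array's log2 processed intensity its own 75th percentile over 58717 non-control spots was subtracted, which was 372 and 383 on the linear scale. A probe printed 10 times took the mean of its log2 spots, and it counted as well above background unless most of its spots lacked the flag. A gene was read by its brightest probe, and a probe well above background on 1 array only gave a bound. RefSeq named 65.1% of the spots. No probe sequences were used here. Coordinates of the array's own build (hg19) are not given, and promoter coordinates are those of RefSeq. Python 3.11.15 with numpy 2.4.6 and pandas 2.3.3, and R 4.3.3 with limma 3.58.1 for normexp (offset 50, on the median spot brightness), were used. The scaling and the median log2 ratio of genes well above background on both arrays were tested on simulated signals, with changes placed in bright genes. The flags were not simulated, so the bounds and the calls of dim genes were not tested. The alternatives were normexp, no scaling, scaling on the median or on spots well above background on both arrays, quantile normalization, the deposited table, the mean over probes, filters on dim and on outlier spots, and a threshold of 3-fold.

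The 10 enzymes and all lists were chosen with earlier results of these data known. Named genes were the 10 enzymes, POSTN, the genes of each list past 2-fold and its lowest and highest, and PLOD3, P4HA3, P4HB, PCOLCE and FN1. Marker genes and the genes under other observations were named besides. The study's qRT-PCR, ELISA, flow cytometry and proliferation data are not analysed here.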

Additional observations from a re-analysis of the deposited data

How the results depend on the processing

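No paired analysis was possible because each group had 1 array, and no replicate could be left out either. Under the 9 alternatives the 10 enzymes gave 90 log2 ratios. All 90 stayed within the propagated error of 1 spot (0.20) of the main value, and 0 changed sign. With scaling on the median, LOX and LOXL2 moved by more than the SD between their 10 spots. The 90 ratios are not separate checks, since several settings moved all enzymes by the same amount or not at all. The number of enzymes more than 2-fold lower, 1 in the main analysis, was 0 with normexp, 0 without scaling, 2 with scaling on the median and 0 at a threshold of 3-fold. The median over the enzymes, -0.01, was -0.14 with scaling on the median, a setting that shifted the median of all genes by -0.13. With normexp, 540 of all genes were more than 2-fold lower and 530 higher, against 1031 and 1279 in the main analysis, and 190 were more than 3-fold lower and 143 higher, against 441 and 541. The share of higher genes among the 2-fold calls was 55.4%, and between 45.6% with scaling on the median and 59.2% without scaling. The cause of these differences was not tested.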

Other observations

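Several genes outside the lists above were looked up after the values of the enzymes were known, and they are given as values without a test. TGM2, transglutaminase 2, crosslinks matrix proteins by a route that does not use lysyl oxidase. Its probe for NM_004613 read 308 with control siRNA and 2477 after knockdown, a log2 ratio of 3.01, while its probe for NM_198951, another transcript of the gene, read 365 and 397, a log2 ratio of 0.12. The probe for NM_004613 stood for the gene only through its signal after knockdown, since the other was the brighter with control siRNA. The probes of TGM2 therefore disagree by far more than the spot error of 0.20, and which of them reads the main transcript was not tested. Of the 8 transglutaminase genes named on the array 3 were measured, TGM1, TGM2 and TGM6. All 3 had ratios above 0, where 45.5% of all genes measured were below 0, so the count is not a result about the family. The signals of TGM1 and TGM6 were low, at 50.4 and 19.9 with control siRNA.

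HIF1A, which encodes the oxygen-regulated subunit of hypoxia-inducible factor, read 1768 and 882 as means of 10 spots, a ratio of 0.499 with an SD of 0.07 between the spots on the log2 scale, and its other probe gave a log2 ratio of -1.01. EPAS1, the related subunit HIF-2 alpha, read 43582 and 64602, a log2 ratio of 0.57. Of the 8 genes looked up for these factors and their hydroxylases 4 were below 0 and 4 above, with HIF1AN, the asparaginyl hydroxylase of the factors, highest at 0.94.

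Of the genes that lie next to the enzymes among those measured, LOXL1-AS1, the antisense partner of LOXL1, stood at 0.59 beside 0.61 for LOXL1, and STOML1, on its other side, at 0.35. On the sides of LOX, at -0.92, SRFBP1 stood at -0.75 and ZNF475 at 0.76, and on those of LOXL3, at -1.02, HTRA2 stood at -0.18 and DOK1 at -0.09. Both neighbours of BMP1, at -0.41, stood on the other side of 0, SFTPC at 0.66 and PHYHIP at a bound of 0.16. Over the 20 pairs of an enzyme and a neighbour, 12 had the same sign. The same share over all neighbouring genes was not computed, and 45.5% of all genes measured were below 0. The count is therefore not a result about the enzymes. MIA2, the RefSeq name of CTAGE5, which acts with MIA3 in procollagen export, read 65.9 and 37.6, a log2 ratio of -0.81, and its other probe well above background gave -1.01.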
